A study of Danio rerio with 26 samples.

Results

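Long peak-free intervals are the stretches of at least 200 kb between one accessible site and the next in the zebrafish embryo. They were chosen by the positions of the consensus ATAC-seq peaks on chromosomes 1 to 25, as every interval from the end of a peak to the start of the next that reached this length, together with the peaks on either side. Of 25496 intervals between neighbouring peaks, 1362 qualified, which is 5.34%. ATAC-seq uses the Tn5 transposase to place sequencing adapters into open DNA, so a peak marks a site of accessible chromatin in at least 1 sampled stage. The consensus peak set was built by the authors from 17 libraries of wild-type (TLAB strain) embryos at 7 stages. There were 2 libraries at the 256-cell stage, before the bulk of zygotic transcription, then 3 at high, 3 at oblong, 2 at sphere, 3 at dome, 2 at shield and 2 at 80% epiboly. Each library came from the pooled cells of whole embryos without yolk, so accessibility in a few cells is averaged with that of all others. Overlapping peaks of all stages were merged in 1 list of positions, with no height, score, stage or library, so the width of a consensus peak can join peaks of several stages. Libraries of pou5f3-KO, sox19b-KO and nanog-KO embryos, of embryos given α-amanitin, and of naked genomic DNA have no values in this list and were not analysed here, except that the authors used the naked DNA as the background for peak calling.

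Accessible sites are mostly promoters and enhancers, where nucleosomes are displaced and transcription factors bind. Such elements are unevenly spread along vertebrate chromosomes. They crowd around some genes and are rare in gene deserts and in heterochromatin, the compact and often repeat-rich part of the genome that replicates late. Zebrafish chromosome 4 is a known example, with a long arm that is heterochromatic and rich in repeats. The lack of a consensus peak does not show that chromatin was closed. The authors kept only alignments of high mapping quality, which removes reads from repeats, and assembly gaps can hold no peak. They also kept only peaks found in every replicate of a stage, so a site missed in any replicate can lack a peak. These and compact chromatin cannot be told apart from the positions. No sequence or gene annotation of the authors' build, Zv10, was used here, so no interval is assigned to a gene and no sequence is shown.

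The long intervals were few, but they held much of the genome. Together they measured 442 Mb, or 33.2% of the 1331 Mb that lay between neighbouring peaks, although they made up 5.34% of the intervals. Their median length was 274 kb, with quartiles of 230 and 356 kb and a mean of 325 ± 171 kb (SD, n = 1362). All other intervals had a median of 18.8 kb and quartiles of 4.30 and 53.8 kb. Most long intervals were close to the limit. Of the 1362, 536 (39.4%) reached 300 kb, 246 (18.1%) reached 400 kb, 122 (8.96%) reached 500 kb and 13 reached 1 Mb. The 467 longest of them (34.3%) held 50% of their summed length. Lengths are what chose these intervals, so these values describe them and carry no test.

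The limit of 200 kb fell on a smooth slope of the length distribution. The 3 shortest long intervals measured 200063 bp (chromosome 10), 200128 bp (chromosome 1) and 200292 bp (chromosome 18). The 3 intervals just below the limit measured 199992 bp (chromosome 8), 199946 bp (chromosome 14) and 199852 bp (chromosome 20). From 200 to 210 kb there were 123 intervals, and from 190 to 200 kb there were 137. The intervals on either side of the limit thus differed by very little in length, and membership near it turns on small differences in length.

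**Figure D1:**
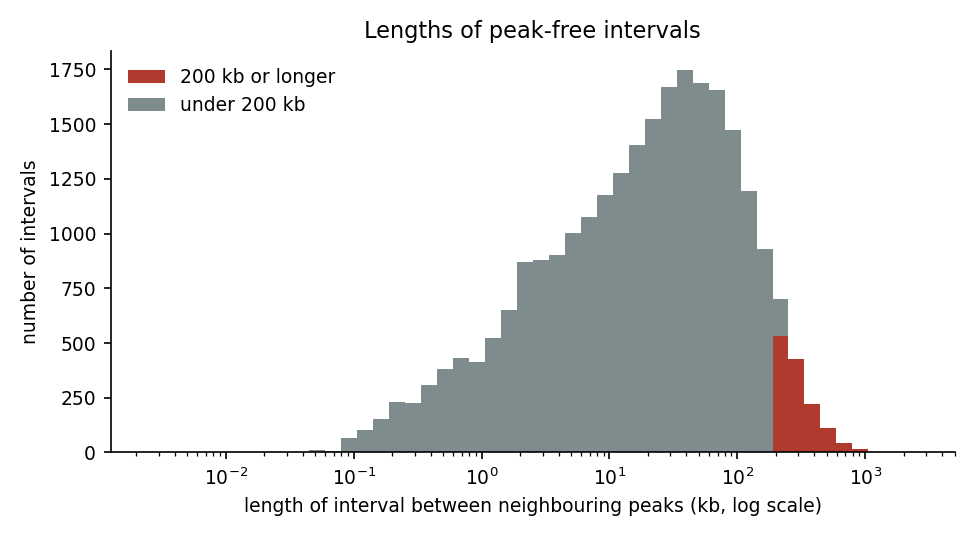
Number of intervals by length between neighbouring consensus peaks on chromosomes 1 to 25, in bins of equal width on a logarithmic axis in kb. The 1362 intervals of 200 kb or longer form the right tail of a single broad distribution, with no separate peak of their own.

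The longest intervals were concentrated on chromosome 4. It held 7 of the 10 longest, 9 of the 13 that reached 1 Mb and 31 of the 122 that reached 500 kb, although all 25 chromosomes had at least 1 of 500 kb or longer. For comparison, chromosome 4 had 824 of the 25496 intervals, 101 of the 1362 long ones and 76.6 of the 1339 Mb of span. The longest interval measured 2.48 Mb and spanned chr4:60048221-62525411. It was followed by chr4:65773974-67774956 with 2001 kb, chr4:63554389-65423775 with 1.87 Mb, chr4:45073504-46618697 with 1.55 Mb and chr4:50808046-52294274 with 1.49 Mb. The sixth was on chromosome 12, chr12:38633203-40090513, and measured 1.46 Mb. The seventh and the eighth were again on chromosome 4, chr4:43667975-45073295 with 1.41 Mb and chr4:53830118-55163425 with 1.33 Mb. Those on chromosome 20, chr20:10689532-11946292 with 1.26 Mb, and on chromosome 14, chr14:17282915-18430369 with 1.15 Mb, completed the 10. Their flanking peaks were from 206 to 449 bp wide, and 15 of the 20 flanks had no further peak within 50 kb on the outer side.

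Every chromosome had long intervals, from 37 on chromosome 23 to 101 on chromosome 4. Long intervals made up 65.5% of the span of chromosome 4 between its first and its last peak. On the other 24 chromosomes they made up 31.3 ± 4.26% on average (SD, n = 24), with no chromosome among them above 38.8%. After chromosome 4 the highest shares were on chromosome 1 (38.8%) and chromosome 14 (37.3%). The lowest were on chromosome 5 (23.8%), chromosome 23 (24.98%) and chromosome 16 (25.1%). By number of long intervals per Mb of span chromosome 4 stood less far apart. Chromosome 4 had 1.32 per Mb, and the other 24 chromosomes had 1.01 ± 0.132 per Mb (SD, n = 24), with a maximum of 1.26 on chromosome 18. The median long interval measured 316 kb on chromosome 4 and 273 ± 16.0 kb elsewhere (SD, n = 24), where chromosome 1 came close with 311 kb.

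**Figure D2:**
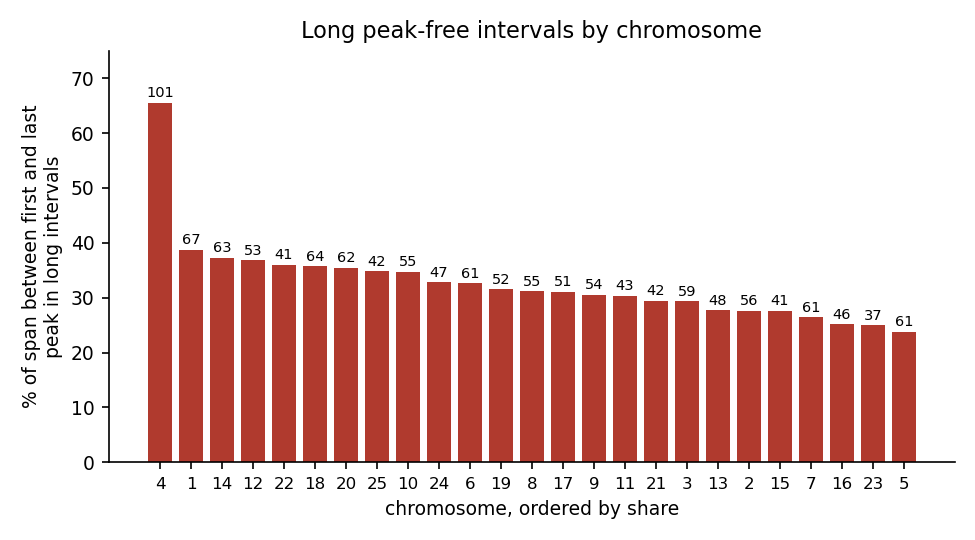
Share of each chromosome's span between its first and last consensus peak that lay in long peak-free intervals, in percent, with the number of long intervals above each bar. Chromosome 4 reached 65.5%, and the other 24 chromosomes lay between 23.8% and 38.8%.

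Within chromosome 4 the excess lay beyond 30 Mb. From 30 Mb on, 68 of 196 intervals were long (34.7%), they covered 86.0% of that stretch, and 27 of them reached 500 kb. Before 30 Mb, 33 of 628 intervals were long (5.25%), close to the 5.34% of the whole genome, and they covered 33.7%. The median long interval measured 412 kb from 30 Mb on and 255 kb before it. The bound of 30 Mb was chosen with the density of peaks on this chromosome known, so the contrast is a description. The stretch from 30 Mb on held 4.99% of all long intervals, 40.1 of their 442 Mb and 27 of the 122 that reached 500 kb. It made up 46.6 of the 1339 Mb of span and 196 of the 25496 intervals. Some values without chromosome 4 are given below.

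Other chromosomes had local concentrations too. In 257 full, non-overlapping bins of 5 Mb, long intervals covered a median of 30.8% of a bin, with quartiles of 21.7 and 43.9%. The part of each chromosome after its last full bin was left out. They covered more than 50% in 34 bins, of which 9 were on chromosome 4 and 25 were spread over 15 other chromosomes. Outside chromosome 4 the highest values were 69.3% from 60 to 65 Mb of chromosome 7, in a bin with 37 peaks, and 69.3% from 30 to 35 Mb of chromosome 1, in a bin with 33 peaks. Chromosome 6 from 15 to 20 Mb followed with 68.9%. These bins were named after their values had been seen. In 1 bin no long interval was found.

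Long intervals covered a smaller share of the ends of chromosomes than of the rest, with the ends set at the first and the last peak. In the first and last 10% of the span between the first and the last peak, long intervals covered 24.3% of the base pairs, against 35.2% in the 80% between them. By chromosome the shares were 23.3 ± 10.1% at the ends and 35.0 ± 9.14% between them (SD, n = 25 each), and the ends had the lower share on 21 of 25 chromosomes. Chromosomes 3, 7, 15 and 17 were the exceptions. Chromosome 3 had 40.5% at its ends and 26.6% between them, and chromosome 7 had 35.3% and 24.2%. In their first 5 Mb, long intervals covered 58.2% on chromosome 3 and 59.5% on chromosome 7. Of the long intervals themselves, 15.3% had their midpoint in the first or last 10% of the span, whereas 25.5% of all other intervals did. Peak density and interval length come from the same positions, so these shares were not tested.

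The reduction was steepest close to the first and the last peak. Each end was set at a peak, so a peak-free stretch beyond it was not counted. A long interval could therefore begin only at or inside that peak, which by itself lowers the share next to it. Among base pairs within 1 Mb of the first or the last peak, 9.53% lay in long intervals. The share was 20.6% from 1 to 2 Mb, 30.1% from 2 to 5 Mb and 33.8% from 5 to 10 Mb. From 10 to 20 Mb it was 35.7%, and it was 35.0% further in. Without chromosome 4 the corresponding values were 8.004, 19.1, 29.5, 33.5, 34.5 and 29.9%, so the shares from 5 Mb inward differed little, and the innermost was the lowest of those. The first long interval met from a chromosome end began at a median of 1.37 Mb (quartiles 0.76 and 2.49 Mb, n = 50 ends), and in 16 of 50 ends it began within 1 Mb. The nearest began 0.073 Mb from the last peak of chromosome 4, and the farthest 5.89 Mb from the last peak of chromosome 23. With the span cut into 10 equal parts, the last part had the lowest share, 21.5%, and the first part the next lowest, 27.0%. The 8 parts between them ranged from 32.5 to 37.9%. Without chromosome 4 the last part had 18.8% and the first 27.2%, and the parts between them ranged from 28.9 to 37.4%, so the first part was then close to the lowest of these.

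**Figure D3:**
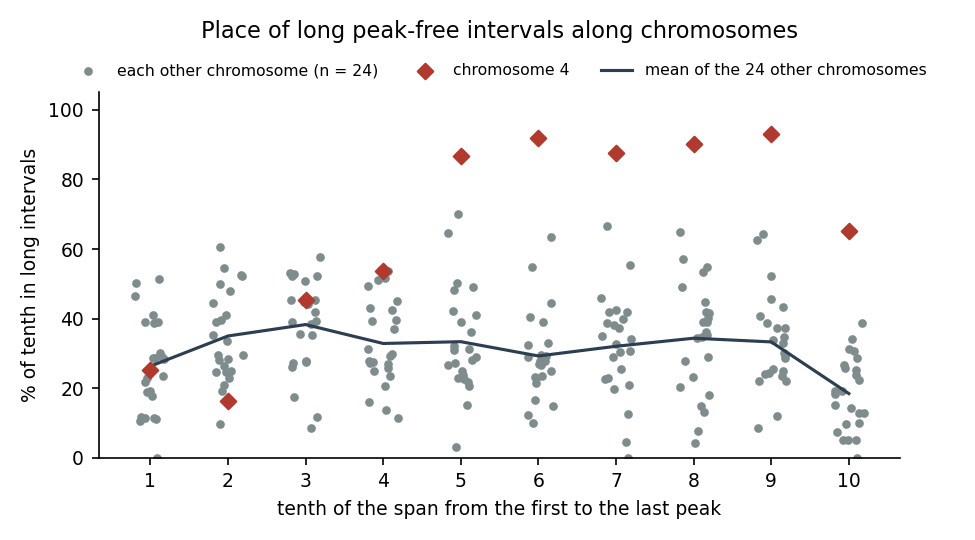
Percent of the base pairs in long peak-free intervals, in each of 10 equal parts of a chromosome's span from its first to its last peak. Grey points are the 24 other chromosomes, the line is their mean and red diamonds are chromosome 4. The first and last part had the lowest shares over all 25 chromosomes together (27.0 and 21.5%), and in parts 5 to 10 chromosome 4 lay above all other chromosomes.

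The peaks beside long intervals were slightly narrower than other peaks. The 1362 intervals had 2557 distinct flanking peaks, which is 10.0% of the 25521 peaks on the chromosomes. Of these, 2390 had a long interval on 1 side and 167 on both sides. The median width was 307 bp for flanking peaks (quartiles 255 and 362 bp) and 317 bp for the remaining 22964 peaks (quartiles 264 and 392 bp). The medians without chromosome 4 were 307.5 bp for flanking and 317 bp for other peaks. Widths of both groups overlapped over nearly their whole range. The median of the flanking peaks was the lower on 22 of 25 chromosomes, with a mean difference of -9.32 ± 7.77 bp, flanking minus other (SD, n = 25 chromosomes). The exceptions were chromosomes 2, 5 and 23, with differences of 3.0, 8.5 and 1.0 bp. Width was not used to choose the intervals. The list gives no values by library, however, and peaks of 1 list are not replicates, so the difference was not tested.

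The difference was larger among wide peaks. Of the flanking peaks, 56 (2.19%, 95% Wilson interval 1.69 to 2.83%) were 600 bp or wider, compared with 1033 (4.50%, interval 4.24 to 4.77%) of the remaining peaks. The flanking peaks thus included 5.14% of the 1089 peaks of that width, although they were 10.0% of all peaks. At the other extreme, 102 flanking peaks (3.99%, interval 3.30 to 4.82%) and 739 others (3.22%, interval 2.998 to 3.45%) had the smallest width in the list, 200 bp. The Wilson intervals treat each peak as independent and cover counting error only. By length of the interval beside it, the share of the smallest width did not rise throughout. It was 2.36% under 1 kb, 4.26% from 50 to 100 kb, 4.35% from 300 to 500 kb and 2.87% at 500 kb or longer. Peaks on the left and on the right of a long interval were alike, with medians of 308.5 and 304 bp. In 278 long intervals (20.4%) both flanks were narrower than 300 bp, and the same held for 17.0% of the other intervals.

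Across all intervals, flanking width was graded by length, with the higher medians below 20 kb. The median width of the flanks was 336 bp for intervals under 1 kb, 328 bp from 1 to 5 kb, 317 bp from 5 to 20 kb and 311 bp from 20 to 50 kb. It was 309 bp from 50 to 100 kb and 308 bp from 100 to 200 kb. Beyond the limit it was 307 bp from 200 to 300 kb, 307 bp from 300 to 500 kb and 299.5 bp for the 122 intervals of 500 kb or longer. The medians beside long intervals were thus close to those beside intervals of 20 to 200 kb. These classes share peaks, since a peak counts with the interval on each of its sides. Of the 2724 flanks of long intervals, 1076 had an outward interval of 20 to 100 kb and 422 had one of 100 to 200 kb. The share of flanks of 600 bp or wider had the same order, with 7.27% for intervals under 1 kb, 3.03% from 100 to 200 kb and 1.64% at 500 kb or longer.

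**Figure D4:**
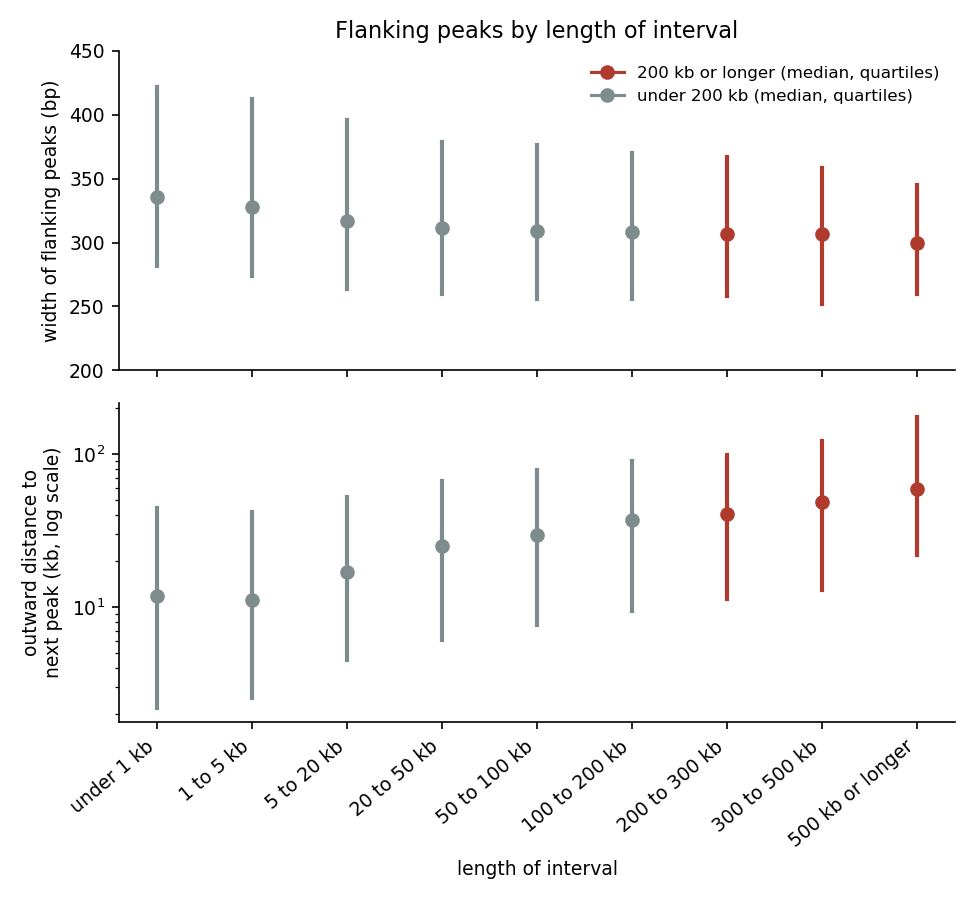
Width in bp of the peaks beside an interval (top) and distance in kb, on a logarithmic axis, from each of these peaks outward to the next peak (bottom), for classes of interval length. Points are medians and lines join the quartiles, with intervals of 200 kb or longer in red. Median width ranged from 336 bp for the shortest class to 299.5 bp for the longest, and median outward distance from 11.2 kb for intervals of 1 to 5 kb to 59.4 kb for the longest class.

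A few flanking peaks were very wide. At 1000 bp or wider there were 4 of 2557 flanking peaks (0.156%) and 78 of the remaining 22964 (0.340%). On chromosome 4 the order was the reverse, with 3 of 161 flanking peaks (1.86%) and 4 of 664 others (0.602%). The widest peak of the list, 4037 bp at chr4:76320117-76324153, bounded a long interval of 277 kb on its left side. Its group consisted of 3 peaks between 2 long intervals. The last of them, chr4:76325068-76326176, measured 1109 bp and opened the next long interval, of 214 kb. The other members of the 5 widest flanks measured 1131 bp (chr13:38581762-38582892), 1096 bp (chr4:14733739-14734834) and 988 bp (chr17:1985879-1986866). Each had its nearest outer neighbour within 5.54 kb. The flank at the far side of these 5 intervals was of ordinary width, from 222 to 372 bp.

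A smaller share of flanking peaks was grouped with other peaks. For each flank the distance was measured outward, away from the interval, to the next peak, so that long and other intervals were compared with 1 free side each. The median outward distance was 43.5 kb beside long intervals (quartiles 12.5 and 110 kb, n = 2724 flanks) and 20.5 kb beside all other intervals (quartiles 4.58 and 61.5 kb, n = 48218). The next peak lay within 5 kb for 419 flanks of long intervals (15.4%, 95% Wilson interval 14.1 to 16.8%) and for 26.2% of those of other intervals. By chromosome the shares were 15.6 ± 4.22% and 26.1 ± 1.82% (SD, n = 25 each). The share was lower beside long intervals on 24 of 25 chromosomes, all except chromosome 23, and the median outward distance was longer on 25 of 25. Without chromosome 4 the shares were 15.6% and 26.2%. Outward distances are intervals of the same list, so these values were not tested. The Wilson interval treats each flank as independent and covers counting error only, and the 167 peaks beside 2 long intervals enter as 2 flanks each.

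The difference in grouping was graded as well. The median outward distance was 11.8 kb for intervals under 1 kb, 25.1 kb from 20 to 50 kb and 37.3 kb from 100 to 200 kb. For long intervals it was 40.5 kb from 200 to 300 kb, 48.8 kb from 300 to 500 kb and 59.4 kb at 500 kb or longer. Against other intervals of at least 20 kb, the share of outer neighbours within 5 kb was 15.4% beside long intervals and 20.4% beside the others. Within 50 kb outward, flanks of long intervals had 1.07 further peaks on average and 46.4% had none, whereas flanks of other intervals had 1.87 and 29.8% had none. Flanks of intervals of 100 to 200 kb were closer to those of long intervals, with 1.23 further peaks and 41.7% with none. In 978 long intervals (71.8%) neither flank had an outer neighbour within 5 kb, in 349 (25.6%) 1 of them had, and in 35 (2.57%) both had. Among other intervals neither flank had one in 56.1%, and both had in 8.46%.

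Width and grouping went together. Flanks of long intervals with an outer neighbour within 5 kb had a median width of 318 bp (n = 419), and those with the next peak at 20 to 100 kb had 303 bp (n = 1076). At the same outward distances, flanks of intervals from 20 to 200 kb had 321 and 308 bp, and flanks of intervals under 20 kb had 340 and 315 bp. Where the next peak lay at 200 kb or more, the median was 307 bp beside long intervals. It was 303 bp beside intervals of 20 to 200 kb and 312 bp beside intervals under 20 kb. Every such peak bounds a long interval on its outer side, so this distance does not separate long from other intervals. The share of flanks of 600 bp or wider was also lower beside long intervals at like outward distances up to 100 kb. With the outer neighbour within 5 kb it was 3.82% beside long intervals, 4.76% beside intervals of 20 to 200 kb and 7.44% beside intervals under 20 kb. From 5 to 20 kb these shares were 1.903, 3.25 and 5.93%, and from 20 to 100 kb they were 1.67, 2.77 and 3.97%.

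Long intervals rarely ended at a dense group. Only 4 of 2724 flanks (0.147%) had at least 10 further peaks within 50 kb outward, and 1.01% of the flanks of other intervals had. The share was also low beside other intervals of 20 kb or longer (0.353%) and beside those of 100 to 200 kb (0.352%). Beside long intervals of 500 kb or longer it was 0.410%, from 1 of 244 flanks. With the peaks of both sides summed, 3 intervals had 12 each. They were chr15:13346526-14090018 (743 kb, with 0 on the left and 12 on the right), chr20:9809482-10099377 (290 kb, 2 and 10) and chr7:5943519-6204750 (261 kb, 2 and 10). The next, with 10 each, were chr13:14332591-14795113 (463 kb, 0 and 10) and chr23:37887943-38188048 (300.1 kb, 9 and 1). In each of these 5 most of the peaks were on 1 side, and the opposite flank had at most 2.

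A larger share of long intervals than of other intervals had a long interval as the next. The next interval along the chromosome was long after 167 of 1362 long intervals (12.3%, 95% Wilson interval 10.6 to 14.1%), whereas it was long after 4.96% of other intervals (interval 4.69 to 5.24%). Of all intervals 5.34% were long. The Wilson intervals here treat each interval as independent and cover counting error only, although neighbouring intervals of 1 list are not replicates. Without chromosome 4 the shares were 9.99% and 4.85%. This contrast was graded by length too. Over both flanks, the outward interval was long in 3.38% for intervals under 1 kb and in 8.25% from 100 to 200 kb. For long intervals it was 9.75% from 200 to 300 kb, 13.8% from 300 to 500 kb and 24.2% at 500 kb or longer. The shares just below and just above the limit were thus close. The 167 pairs correspond to 167 single peaks with at least 200 kb free of peaks on either side, of which 41 were on chromosome 4 and 126 elsewhere, with at least 1 on 24 chromosomes. These single peaks had a median width of 307 bp, equal to that of all flanking peaks, and 3 of them (1.80%) were 600 bp or wider. In all, 288 long intervals (21.1%) belonged to 121 runs of at least 2, and 1074 stood alone. There were 28 runs of 3, 7 runs of 4 and 1 run of 6, and 11 of these 36 were on chromosome 4.

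The run of 6 was chr4:50808046-55576565. It measured 4.77 Mb and held 5 peaks, which were 285, 459, 358, 330 and 274 bp wide. The intervals between them measured 1486, 934, 293, 307, 1333 and 413 kb. The longest run by extent was chr4:60048221-65742664, with 5.69 Mb and 3 peaks of 282, 219 and 328 bp. It joined intervals of 2477, 1028, 1869 and 319 kb. Outside chromosome 4 the longest was chr20:10689532-12749144, with 2.06 Mb, 3 long intervals and 2 peaks.

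Between successive long intervals lay 1337 stretches of peaks. They held a median of 10 peaks (quartiles 3 and 23) and measured a median of 379 kb. Besides the 167 single peaks, 129 stretches had 2 peaks and 191 had 3 to 5. Few stretches were compact as a whole, a count that leaves out dense groups inside longer stretches. Of the 1337 stretches, 6 consisted of at least 3 peaks within 20 kb. The largest of these was chr3:2010066-2026139, with 5 peaks in 16.1 kb. The peaks were unevenly shared, since the 288 stretches of 21 to 50 peaks held 40.2% of all peaks between long intervals and the 83 larger ones held 29.2%. Parts between a chromosome's first or last peak and its nearest long interval were not among these stretches. The longest such part measured 5.89 Mb, at the last peak of chromosome 23, and its peaks were not ranked. Among the stretches between long intervals the largest, chr7:28132614-36853703, held 254 peaks in 8.72 Mb. Those that followed were chr14:30200527-33727927, with 152 peaks in 3.53 Mb, and chr1:49883983-54612730, with 143 peaks in 4.73 Mb.

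**Figure D5:**
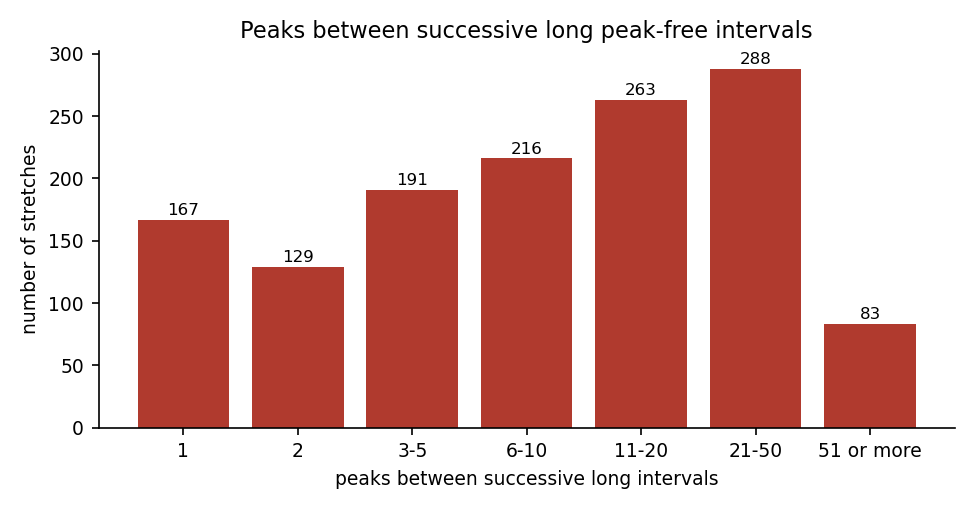
Number of stretches between successive long peak-free intervals of a chromosome, by how many consensus peaks they held, in classes of unequal width. Of 1337 stretches, 167 were single peaks, 288 held 21 to 50 peaks and 83 held more.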

How the data were processed

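Per the labels and the study's methods, the authors trimmed reads with cutadapt 1.9.1, aligned them to Zv10 with Bowtie2 2.2.4 and removed duplicates, mitochondrial reads and alignments of low quality. They shifted read ends for Tn5, called peaks on nucleosome-free fragments with MACS2 2.1.1 on replicates pooled by stage, against naked genomic DNA, and kept those found in every replicate. The deposited values are the positions, in base pairs, of these peaks after merging over the wild-type stages. Positions alone do not give library depth, which is therefore unknown here.

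Intervals were computed in Python 3.11.15 with pandas 2.3.3, numpy 2.4.6 and scipy 1.17.1, and drawn with matplotlib 3.10.9. Starts were read as counted from 0 and are given counted from 1. An interval runs from the first base after a peak to the last base before the next. The span of a chromosome runs from its first to its last peak, since chromosome lengths were not used here. Peaks on unplaced scaffolds were left out. The calculations were tested on simulated peaks with planted intervals. No test was run, because 1 merged list holds no replicates, and spread is given over chromosomes. The members, the regions named by rule (the longest intervals and runs, those nearest the limit, the widest flanks, the densest surroundings and the extreme chromosomes) and the comparisons were chosen with earlier results of these data known.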

Additional observations from a re-analysis of the deposited data

How the results depend on the processing

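Of 51 alternative values, 29 stayed within the range allowed and 22 moved beyond it. The range was 1.5 times for a number, and the SD over chromosomes or the 95% Wilson interval otherwise. For ends against the middle it was 0.351 on either side of 0.689, so a ratio of no difference would also have stayed within it. A value within the range therefore does not show that a difference held. A change of direction could be called only for the ratios, and 0 of these reversed. The numbers, the shares of interval length and the shares followed by another could not reverse. The number of long intervals follows from the limit, with 3921, 2225, 536, 246 and 122 at 100, 150, 300, 400 and 500 kb, which held 60.0, 44.4, 18.2, 10.8 and 6.64% of the interval length. It was 1362 with peaks joined across gaps of up to 500 bp, 1414 without peaks of the smallest width and 1261 without chromosome 4. The ratio of chromosome 4 to the mean of the other chromosomes was 2.09 by share of span, 1.31 by number per Mb, 2.34 by share of intervals, 1.36 at 100 kb and 8.30 at 500 kb. The ratio of flanking to other peaks was 0.968 for median width, 0.934 for mean width and 0.487 for the share of 600 bp or wider. The ratio of the shares with an outer neighbour within 5 kb was 0.587, and 0.753 against other intervals of 20 kb or longer. The share of long intervals followed by another, 12.3%, was 21.7% and 35.8% with up to 2 and 5 peaks between them, 24.2% at 100 kb, 7.38% at 500 kb and 9.99% without chromosome 4. Of 25496 intervals, 3921 were long at 100 kb, 1362 at 200 kb and 122 at 500 kb, so these shares cannot be compared across limits. Allowing more peaks between them raises the share for any interval too, and the matching shares for other intervals are not given here. For ends against the middle the ratio was 0.689, and 0.548 to 0.841 over its alternatives. Apart from the changes that follow from another limit or measure, the cause was not tested. No paired analysis was possible because the positions carry no values by replicate, and leaving out single replicates was likewise not possible.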

Other observations

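On the 248 unplaced scaffolds, which were outside the comparisons, 454 peaks formed 206 intervals. None of these intervals reached 200 kb, and the longest measured 82.0 kb. Whether this reflects the lengths of the scaffolds was not tested.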
